A study of Mus musculus with 4 samples.

Results

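Cadherins and protocadherins are the calcium-dependent adhesion proteins by which neural cells recognise and hold one another, and here they were taken as every gene of the deposited matrices whose symbol begins with Cdh and a digit or with Pcdh. This gave 92 of 32286 genes, of which 23 were cadherins and 69 were protocadherins. They were measured by single-cell RNA sequencing in mouse tumours that the submitters label MB, in 4 libraries, each of 1 genotype and 1 sex. The SG genotype, fSMO-M2;hGFAPcre, carries SMO-M2, a constitutively active form of the Hedgehog signal transducer Smoothened, with a Cre recombinase under the human GFAP promoter. The YSG genotype, fYap1;fSMO-M2;hGFAPcre, carries both of these and in addition a floxed allele of Yap1, a transcriptional co-activator of the Hippo pathway, and its animals are described as rescued. All tumours were taken at end point, so SMO-M2 and hGFAPcre were common to every library and neither genotype is a normal cerebellum. hGFAPcre is known to act in neural progenitors of the mouse brain that give rise to both neurons and glia, so it does not limit recombination to 1 cell type. Neither the animals' ages nor how many were used for a library, nor the zygosity of the alleles, is given in the labels used here. With 1 library for each genotype and sex, no difference within a sex or between the sexes can be tested, and the one test given, of genotype over both sexes, takes the male and the female library of a genotype as its replicates. The intervals below are exact 95% intervals of the UMI counts (unique molecular identifiers, 1 for each captured RNA molecule), which cover counting error only and not the spread between animals.

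Classical cadherins bind the same cadherin on a neighbouring cell and are tied to actin through catenins on the inside. Type I members such as N-cadherin hold epithelia and neuroepithelia together, and type II members mark out groups of neurons and their connections. Non-clustered protocadherins are single genes with their own promoters, several of which recruit the WAVE complex, a regulator of actin. The clustered protocadherins, named alpha, beta and gamma, lie in tandem arrays from which each neuron expresses a few variable exons, and they serve in self-recognition of neurites. In the cerebellum, granule cell progenitors divide in the external layer under Hedgehog signals, then stop dividing, migrate and mature, and they are the cells from which Hedgehog-driven tumours of this region are known to arise. The 92 genes comprised 5 type I cadherins, 13 type II cadherins, 5 other cadherins, 12 non-clustered protocadherins, and 14 alpha, 22 beta and 21 gamma protocadherins.

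The sequences below lie just before the annotated starts of 4 members that were lower in YSG than in SG tumours of both sexes, and they show what the region before the start of such a gene holds. They are from the RefSeq promoter table for GRCm38.p6, printed 5′ to 3′ on the gene's strand, for Cdh20 at chr1:104768270-104768519 on the plus strand, Pcdh7 at chr5:57717831-57717966 on the plus strand, Pcdh9 at chr14:93890680-93890929 on the minus strand and Pcdh20 at chr14:88471397-88471646 on the minus strand. The Pcdh7 stretch has 136 bases because it was ended where the gene's longest annotated transcript begins, and the others have 250. Capitals mark the one TEAD match found, 107 bases before the start of Cdh20.
Cdh20: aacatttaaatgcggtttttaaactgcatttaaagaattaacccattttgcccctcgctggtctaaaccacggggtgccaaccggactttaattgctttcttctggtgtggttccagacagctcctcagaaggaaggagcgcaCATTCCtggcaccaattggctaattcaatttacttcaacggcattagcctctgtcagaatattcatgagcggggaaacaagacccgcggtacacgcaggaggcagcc
Pcdh7: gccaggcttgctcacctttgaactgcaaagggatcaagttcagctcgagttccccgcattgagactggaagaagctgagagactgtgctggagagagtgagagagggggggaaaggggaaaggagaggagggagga
Pcdh9: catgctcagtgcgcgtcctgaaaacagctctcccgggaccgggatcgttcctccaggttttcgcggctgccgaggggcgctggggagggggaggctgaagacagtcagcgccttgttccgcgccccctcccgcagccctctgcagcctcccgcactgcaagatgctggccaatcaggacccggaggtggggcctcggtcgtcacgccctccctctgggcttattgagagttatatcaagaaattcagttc
Pcdh20: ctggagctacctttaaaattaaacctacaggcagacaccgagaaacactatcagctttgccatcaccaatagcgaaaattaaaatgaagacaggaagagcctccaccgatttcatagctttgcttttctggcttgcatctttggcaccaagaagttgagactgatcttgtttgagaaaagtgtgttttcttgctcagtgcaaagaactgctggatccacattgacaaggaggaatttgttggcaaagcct
The letters searched, on both strands of the 250 bases before the start, were GGAATG for TEAD, the DNA-binding partner of YAP1, TGANTCA for AP-1 and GACCACCCA for GLI, the transcription factors at the end of the Hedgehog pathway. The TEAD letters occurred in 3414 of the windows of 27025 genes, or 12.6%, and in 3 of the 22 members that have a window, or 13.6%, namely Cdh20, Cdh9 and Cdh10. The AP-1 letters occurred in 6.87% and the GLI letters in 0.211% of all windows, and in 0 of the 22 members' windows. Such a match describes the letters and is not evidence of binding.

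After removal of barcodes with fewer than 500 UMIs, fewer than 300 genes or more than 20% mitochondrial UMIs, 8419 cells of SG males, 7882 of YSG males, 7656 of SG females and 7193 of YSG females remained, with medians of 5872.5 to 7419.5 UMIs a cell. Between 90.9% and 92.2% of the cells of each library fell into clusters of the granule lineage, with 56400626 to 83405700 UMIs a library, and all 11 granule progenitor markers were detected in each library. Yap1 had 236 and 344 UMIs in that lineage in SG males and females and 6 and 1 in YSG males and females. The genotypes differed in the make-up of the lineage. Cycling clusters held 32.8% and 37.0% of the SG male and SG female cells and 27.6% and 21.7% of the YSG male and YSG female cells, while clusters named maturing postmitotic granule neurons by their markers held 5.30% and 3.93% in SG against 24.03% and 34.05% in YSG. These shares depended on the clustering: at a finer resolution of 2.0 the maturing clusters held 4.62% and 3.45% in SG against 9.26% and 21.1% in YSG, and the cycling clusters 23.6% and 26.3% against 27.6% and 21.9%, so that the order of the cycling shares turned among males. A level summed over the lineage therefore cannot tell a shift in these cell shares from a change within cells, and values within groups are given further on. Pairs of libraries shared 9 to 21 barcodes, at most 0.274% of the smaller library.

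In the granule lineage 36 of the 92 members reached a level of 5 CPM (the gene's UMIs scaled to the total UMIs of the cells summed, in the usual CPM unit) in 1 library or more, 30 had their highest level between 1 and 5 CPM, and 26 stayed under 1 CPM. Each molecule is counted once from its 3′ end, so levels are not divided by gene length. The 36 were 10 of the 12 non-clustered protocadherins, 9 gamma, 8 beta and 2 alpha protocadherins, 4 type II and 2 type I cadherins, and Cdh13, a cadherin anchored to the membrane by lipid. Cdh1, which encodes the epithelial E-cadherin, Cdh3 and Cdh26 had 0 UMIs in this lineage in every library, which allows up to 3 UMIs a library. Summed over all 92 genes the level was 699 CPM in SG males, 654 CPM in YSG males, 737 CPM in SG females and 644 CPM in YSG females.

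**Figure D1:**
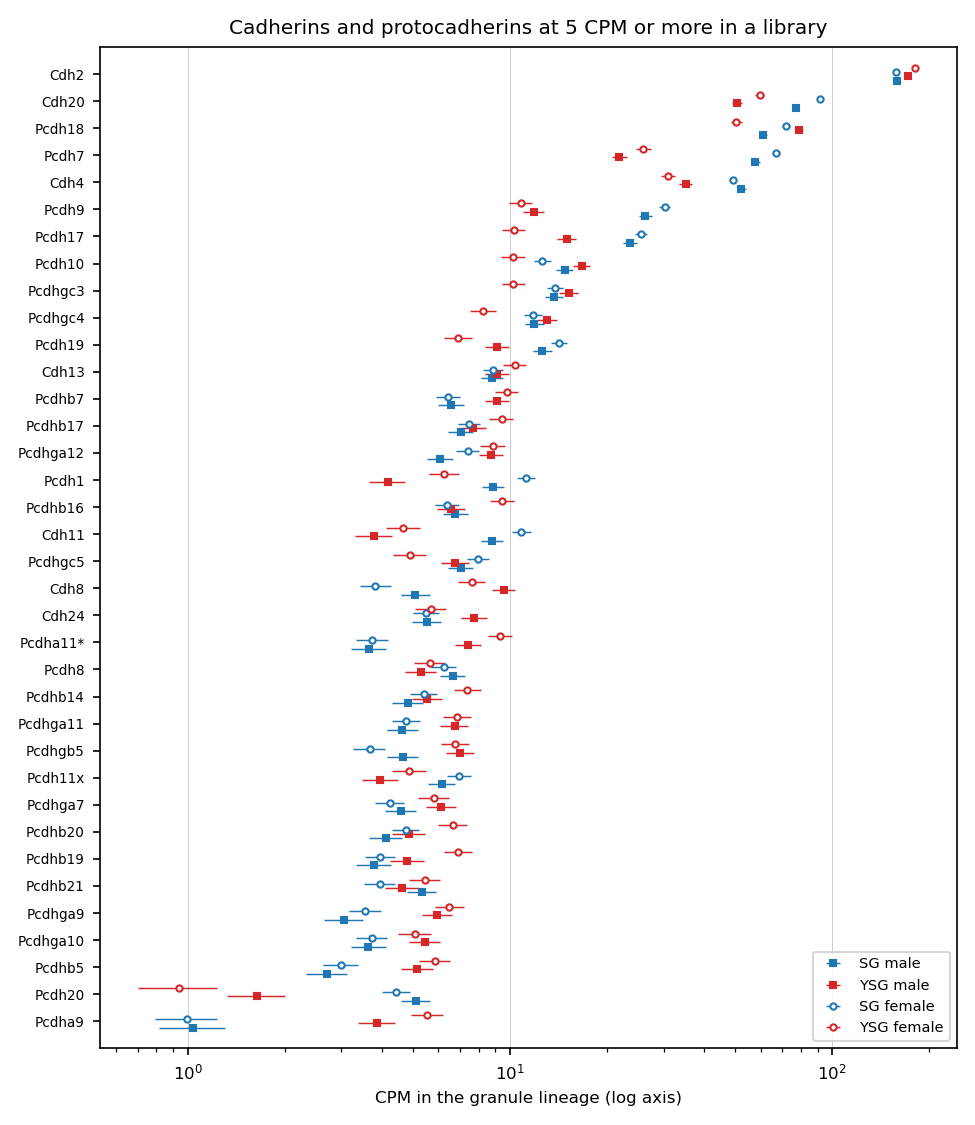
Level of the 36 members that reached 5 CPM in any library, summed over the granule lineage, on a log axis in CPM; squares are males, open circles females, blue SG and red YSG, and bars are exact 95% counting intervals. Cdh2 leads in all 4 libraries between 158 and 181 CPM, and Pcdh7, Pcdh9, Pcdh17 and Cdh11 have both SG libraries to the right of both YSG libraries. Pcdha11 with an asterisk is the gene ENSMUSG00000102206.

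Among the type I cadherins, Cdh2, which encodes N-cadherin and lies at 16588877 to 16809246 on chromosome 18 of mm10, had the highest level of the family. It stood at 159 CPM in SG males, 172 CPM in YSG males, 158 CPM in SG females and 181 CPM in YSG females. The genotypes were close, with log2 ratios of YSG over SG of 0.11 among males and 0.20 among females. Cdh4, which encodes R-cadherin (chromosome 2, 179442431 to 179899373), stood at 52.2 CPM in SG males, 35.1 CPM in YSG males, 49.2 CPM in SG females and 30.9 CPM in YSG females. Both SG libraries were above both YSG libraries, by 1.49-fold among males (1.41 to 1.57) and by 1.59-fold among females (1.503 to 1.68). Cdh15, which encodes M-cadherin of muscle and granule cells, stayed under 5 CPM, at 4.08 and 4.33 CPM in SG males and females and 3.42 and 1.91 CPM in YSG males and females. The summed level of type I cadherins did not separate the genotypes, at 215 CPM in SG males, 210.0 CPM in YSG males, 211 CPM in SG females and 214 CPM in YSG females.

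Among the type II cadherins, Cdh20 (chromosome 1, 104768529 to 104995481) was the most abundant, at 76.9 CPM in SG males, 50.6 CPM in YSG males, 91.6 CPM in SG females and 59.6 CPM in YSG females. Both SG libraries were above both YSG libraries, by 1.52-fold among males (1.45 to 1.59) and by 1.54-fold among females (1.48 to 1.603). Cdh11, a type II cadherin best known from mesenchymal cells (chromosome 8, 102632095 to 102785642), stood at 8.83 CPM in SG males, 3.78 CPM in YSG males, 10.9 CPM in SG females and 4.66 CPM in YSG females. The genotypes again did not overlap, with SG above YSG by 2.34-fold among males (2.001 to 2.74) and by 2.33-fold among females (2.03 to 2.68). Cdh8, a type II cadherin of neuronal circuits that lies on the same chromosome (99024471 to 99416471), went the other way, at 5.09 CPM in SG males, 9.55 CPM in YSG males, 3.82 CPM in SG females and 7.61 CPM in YSG females. Both YSG libraries were above both SG libraries, by 1.88-fold among males (1.64 to 2.15) and by 1.99-fold among females (1.72 to 2.31). For the class as a whole, summed over the lineage, the YSG level was 0.727 of the SG level in males and 0.716 in females, and Cdh20 made up most of it. Not every cell group kept this. In cycling cells the folds were 0.744 among males and 0.750 among females. In maturing cells they were 1.19 among males (0.939 to 1.51) and 1.08 among females (0.842 to 1.42), with intervals that included 1. In early postmitotic cells of females the fold was 1.25 (1.14 to 1.37).

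Of the 9 non-clustered protocadherins measured in both sexes, 7 were lower in YSG in both, 0 were higher in both and 2 were of opposite direction, beside 36.7% lower in both and 35.3% higher in both among 10019 genes. Pcdh7, a delta protocadherin (chromosome 5, 57717967 to 58133230), stood at 57.7 CPM in SG males, 21.8 CPM in YSG males, 66.9 CPM in SG females and 25.9 CPM in YSG females. Both SG libraries were far above both YSG libraries, by 2.64-fold among males (2.48 to 2.81) and by 2.58-fold among females (2.44 to 2.74). Pcdh9, of the same delta group, stood at 26.3 CPM in SG males, 11.9 CPM in YSG males, 30.2 CPM in SG females and 10.8 CPM in YSG females. SG was again above YSG in both sexes, by 2.21-fold among males (2.03 to 2.42) and by 2.80-fold among females (2.56 to 3.06). Pcdh17, a delta protocadherin that recruits the WAVE complex, stood at 23.6 CPM in SG males, 15.01 CPM in YSG males, 25.5 CPM in SG females and 10.3 CPM in YSG females. SG was above YSG by 1.57-fold among males (1.45 to 1.71) and by 2.48-fold among females (2.26 to 2.72). Pcdh20 was sparse, at 5.10 CPM in SG males, 1.64 CPM in YSG males, 4.44 CPM in SG females and 0.94 CPM in YSG females, from 358, 96, 370 and 53 UMIs. The SG libraries held the higher counts in both sexes, by 3.11-fold among males (2.48 to 3.94) and by 4.72-fold among females (3.53 to 6.42).

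Pcdh17, Pcdh20 and Pcdh9 lie in that order on chromosome 14 of mm10, at 84443563 to 84539002, 88464743 to 88471396 and 93013410 to 93890679. The genes between them that reached 5 CPM were Diaph3, a formin that builds actin filaments, with log2 ratios of −0.23 among males and −0.52 among females, and Tdrd3, with −0.31 and −0.27. Both were lower in YSG by less than any of the 3 protocadherins in the same sex. Gm32913, which also lies between them, did not reach 5 CPM and was higher in YSG. It stood at 0.827 CPM in SG males, 4.85 CPM in YSG males, 1.15 CPM in SG females and 2.94 CPM in YSG females. Pcdh1, another delta protocadherin, stood at 8.85 CPM in SG males, 4.17 CPM in YSG males, 11.2 CPM in SG females and 6.26 CPM in YSG females. SG was above YSG by 2.12-fold among males and by 1.79-fold among females, and the log2 ratios after 1 CPM was added were −0.93 and −0.75. Pcdh19, an X-linked delta protocadherin that partners N-cadherin, stood at 12.6 CPM in SG males, 9.11 CPM in YSG males, 14.2 CPM in SG females and 6.90 CPM in YSG females, so that both SG libraries were above both YSG libraries.

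Pcdh18 and Pcdh10 did not follow the rest of the non-clustered class. Pcdh18 (chromosome 3, 49743296 to 49757325) stood at 61.01 CPM in SG males, 79.0 CPM in YSG males, 71.8 CPM in SG females and 50.4 CPM in YSG females. The YSG male library was the highest and the YSG female library the lowest, with log2 ratios of 0.37 among males and −0.50 among females. Pcdh10, which recruits the WAVE complex, stood at 14.8 CPM in SG males, 16.7 CPM in YSG males, 12.6 CPM in SG females and 10.2 CPM in YSG females, with log2 ratios of 0.16 and −0.28. Summed over the 12 non-clustered genes the level was 224 CPM in SG males, 169 CPM in YSG males, 251 CPM in SG females and 133 CPM in YSG females. This was 0.756 of the SG level in YSG males (0.737 to 0.775) and 0.529 in YSG females (0.516 to 0.544).

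Summed over the lineage, the alpha, beta and gamma clusters were each higher in YSG in both sexes, while the non-clustered sum was lower. In the annotation the last 500 exonic bases of the alpha genes, and likewise of the gamma genes, fall in exons that they share with other genes of the same cluster and strand. A 3′ read from such an exon cannot name its gene, so values of single alpha and gamma members are uncertain. The sum over a cluster does not depend on how counted reads were split within it, but it lacks any reads left uncounted. Whether such reads were left uncounted is not given, so these sums may miss part of a cluster's RNA. The alpha sum was 8.38 CPM in SG males, 21.1 CPM in YSG males, 8.48 CPM in SG females and 25.3 CPM in YSG females. Both YSG libraries were above both SG libraries, by 2.52-fold among males (2.28 to 2.79) and by 2.99-fold among females (2.73 to 3.27). Of its members Pcdha9 stood at 1.04 CPM in SG males, 3.86 CPM in YSG males, 0.995 CPM in SG females and 5.53 CPM in YSG females. YSG was above SG by 3.71-fold among males (2.84 to 4.90) and by 5.56-fold among females (4.35 to 7.17). A gene listed as Pcdha11 with the identifier ENSMUSG00000102206, 1 of a pair of genes that carry this symbol, stood at 3.65 CPM in SG males, 7.42 CPM in YSG males, 3.74 CPM in SG females and 9.34 CPM in YSG females. The YSG libraries were again the higher pair.

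The beta sum was 60.0 CPM in SG males, 68.9 CPM in YSG males, 58.7 CPM in SG females and 88.2 CPM in YSG females. YSG was above SG by 1.15-fold among males (1.10 to 1.20) and by 1.501-fold among females (1.44 to 1.56). The gamma sum was 76.99 CPM in SG males, 98.7 CPM in YSG males, 76.6 CPM in SG females and 84.5 CPM in YSG females, higher in YSG by 1.28-fold and 1.10-fold. Of the 9 gamma genes measured in both sexes, 6 were higher in YSG in both, 1 was lower in both and 2 were of opposite direction. Among all 10019 genes 35.3% were higher in both and 36.7% lower in both. The C-type genes Pcdhgc3 and Pcdhgc4 were higher in YSG among males, as the gamma sum was, and lower among females. Pcdhgc3, the most abundant, stood at 13.7 CPM in SG males, 15.2 CPM in YSG males, 13.8 CPM in SG females and 10.2 CPM in YSG females, highest in YSG males and lowest in YSG females. Pcdhgc4 stood at 11.9 CPM, 13.0 CPM, 11.8 CPM and 8.26 CPM in the same order of libraries, with the same pattern. Pcdhgc5, also of the C type, stood in cycling cells at 7.62 CPM, 7.59 CPM, 8.66 CPM and 4.98 CPM in that order. These single gamma values carry the uncertainty given above.

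More members passed 2-fold lower in YSG than higher. A gene was counted as measured in a comparison when 1 of its libraries reached 5 CPM, and as past 2-fold at a log2 ratio of 1 or more in size after 1 CPM was added to each level, which understates the change of low genes. In males 0 of 33 measured members were past 2-fold higher in YSG, against 1.66% of 10107 genes, and 4 of 33, or 12.1%, were past 2-fold lower, against 2.33%. Those 4 were Pcdh7, Pcdh9, Cdh11 and Pcdh20. In females 2 of 35 were past 2-fold higher, against 3.17% of 10317 genes, and 4 of 35, or 11.4%, were past 2-fold lower, against 2.36%. The higher ones were Pcdha9 and Pcdha11 (ENSMUSG00000102206) and the lower ones Pcdh7, Pcdh9, Cdh11 and Pcdh17. In both sexes at once 0 of 32 members were past 2-fold higher, against 1.21% of 10019 genes, and 3 of 32 were past 2-fold lower, against 1.52%, namely Pcdh7, Pcdh9 and Cdh11. Their log2 ratios were −1.36 and −1.33 for Pcdh7, −1.08 and −1.40 for Pcdh9, and −1.04 and −1.07 for Cdh11, in males and females.

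Those past 2-fold in 1 sex were of the same direction in the other. Pcdh17 had log2 ratios of −0.62 among males and −1.23 among females, and Pcdh20 had −1.21 and −1.49, though it did not reach 5 CPM in either female library. Pcdha9 had 1.25 and 1.71 but did not reach 5 CPM in either male library, and Pcdha11 (ENSMUSG00000102206) had 0.86 and 1.13. No difference between the sexes in a genotype ratio was tested. Of the 32 members measured in both sexes 15 were higher in YSG in both, 11 were lower in both and 6 were of opposite direction, and in 0 of them did the sexes' ratios differ by 2-fold or more. The median log2 ratio of the members was 0.11 in males and 0.20 in females, beside −0.01 and 0.00 over all measured genes. That median joins classes that went apart, with class medians of −0.53 and −0.75 for the non-clustered protocadherins, 0.14 and 0.45 for the beta genes, and 0.46 and 0.36 for the gamma genes.

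Genotype was also tested over the 4 libraries with sex as a block, on the lineage sums of the 10405 genes that reached 5 CPM in a library, a test chosen after the data were seen. It has 1 residual degree of freedom, its spread is that between 1 male and 1 female library, and whether other animals vary as little is unknown. In this edgeR quasi-likelihood test 8 of 36 members were lower in YSG at an adjusted p under 0.05, beside 6.10% of all genes, and 5 were higher, beside 7.54%. Those that fell were, with edgeR's adjusted p, Pcdh7 (0.002155), Pcdh9 (0.00451), Cdh11 (0.0102), Cdh20 (0.0114), Pcdh20 (0.0130), Cdh4 (0.017), Pcdh1 (0.02097) and Pcdh17 (0.0222). Their fitted log2 changes ran from −1.92 for Pcdh20 to −0.61 for Cdh20, in both sexes with SG the higher library. Those that rose were Pcdha9 (edgeR's adjusted p 0.01015), Pcdha11 ENSMUSG00000102206 (0.0156), Cdh8 (0.0219), Pcdhga9 (0.0372) and Pcdhb5 (0.0396), by 2.19, 1.18, 0.95, 0.92 and 0.95 on the log2 scale. Pcdhb5, a member of the beta cluster, stood at 2.71 CPM in SG males, 5.16 CPM in YSG males, 2.99 CPM in SG females and 5.83 CPM in YSG females. Pcdh19 (edgeR's adjusted p 0.0542), Cdh2 (0.2797), Pcdh10 (0.854) and Pcdh18 (0.872) did not pass. The test says nothing of shifts in cell shares, which these sums hold.

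**Figure D2:**
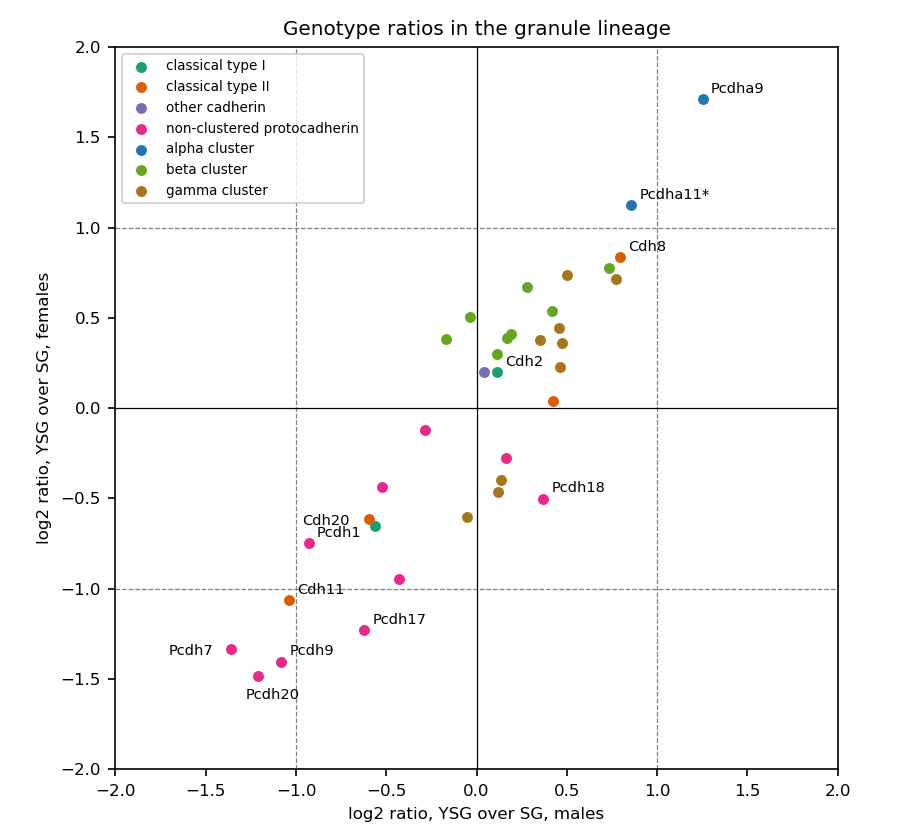
Log2 ratio of YSG over SG in the granule lineage, in males on the horizontal and in females on the vertical axis, 1 point for each of the 36 members that reached 5 CPM in a library, coloured by class; dashed lines mark 2-fold. Non-clustered protocadherins lie mostly in the lower left, with Pcdh7 at −1.36 and −1.33, while clustered genes lie mostly in the upper right, with Pcdha9 at 1.25 and 1.71. Pcdha11 with an asterisk is the gene ENSMUSG00000102206.

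Markers of other cell types, summed within the granule lineage clusters, differed between the genotypes. The summed level of 10 fibroblast and mural markers was 11.01 and 12.9 CPM in SG males and females and 2.15 and 3.03 CPM in YSG males and females, with 8 and 9 of the 10 lower in YSG. The 12 astroglial markers summed to 1154 and 1071 CPM in SG and to 999 and 870.4 CPM in YSG, with 8 and 9 of the 12 lower. The 9 oligodendrocyte markers went the other way, at 42.6 and 29.0 CPM in SG males and females and 68.8 and 62.5 CPM in YSG males and females. Of these 9, 3 were lower in YSG in each sex. The 8 markers of oligodendrocyte precursors summed to 214 and 197 CPM in SG and to 244 and 255 CPM in YSG. In each sex 5 of the 8 were lower in YSG, and Pdgfra alone went from 26.9 to 69.2 CPM among males and from 25.5 to 75.5 CPM among females. None of the astroglial or precursor markers was at 0 in any library. Whether these transcripts came from other cells or from the lineage's own cells was not tested, nor was any part of theirs in the members' ratios.

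Cell groups differed from each other in the members they held. Clustering of all cells gave 18 clusters, of which 5 were cycling, 2 early postmitotic, 2 maturing postmitotic and 4 other clusters of the granule lineage, with 1 cluster each of astroglia-like, oligodendrocyte lineage-like, endothelial-like and leukocyte-like cells and 1 that stayed unnamed. The rule that named them was set after the clusters were seen. Pooled over the 4 libraries there were 439 astroglial, 216 oligodendrocyte lineage and 58 endothelial cells, so levels in these groups rest on few cells. The endothelial cluster also had fibroblast and haemoglobin genes among its leading genes, so it is not pure.

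**Figure D3:**
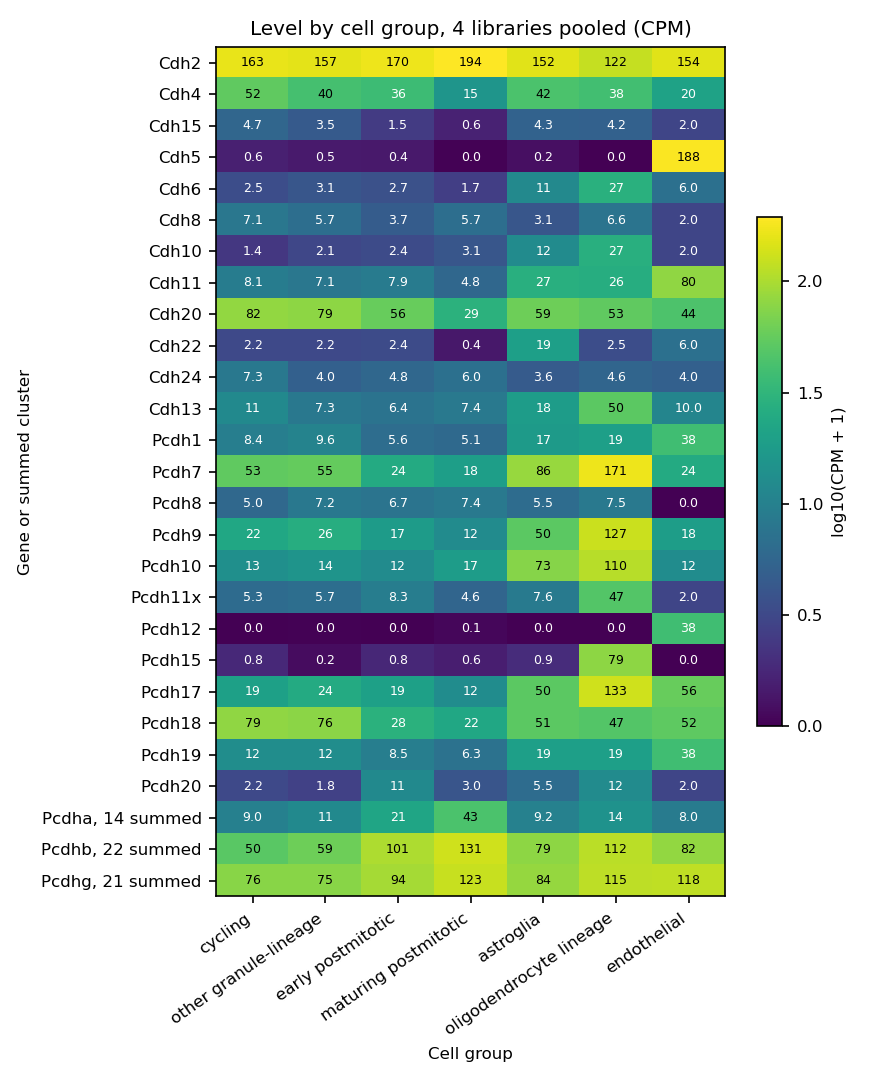
Level of selected members and of the summed alpha, beta and gamma clusters by cell group, 4 libraries pooled, with the CPM value printed in each cell and the colour giving log10(CPM + 1). Cdh5 and Pcdh12 stand out in endothelial cells, Pcdh7, Pcdh9, Pcdh10, Pcdh15 and Pcdh17 in the oligodendrocyte lineage, and the sums of the clustered protocadherins rise from cycling to maturing cells.

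Cdh5, which encodes the vascular endothelial VE-cadherin (chromosome 8, 104101625 to 104144511), was at 188 CPM (152 to 230, from 94 UMIs) in endothelial cells. Pcdh12, a protocadherin of endothelium, and Pcdh1 and Pcdh19 were at 37.9 CPM there. Cdh2 was at 154 CPM, Cdh11 at 79.8 CPM, Pcdh17 at 55.9 CPM and Pcdh18 at 51.9 CPM in the same cells. Of the members at 5 CPM or more in endothelial cells or in the granule lineage, 11 of 36 were past 2-fold above the granule lineage in endothelial cells, beside 19.8% of all genes, and 5 were past 2-fold below it, beside 13.8%. In the oligodendrocyte lineage the share was 15 of 44, beside 11.01% of all genes, and in astroglia it was 8 of 35, beside 9.70%. The members were left out of the variable genes from which the clusters were built. These counts describe the clusters and test nothing.

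Several delta protocadherins of the granule lineage were at higher levels in glia. In the astroglial and oligodendrocyte clusters pooled Cdh2 was at 141 CPM, Pcdh7 at 117 CPM, Pcdh10 at 86.9 CPM, Pcdh17 at 80.4 CPM and Pcdh9 at 78.2 CPM. The oligodendrocyte lineage led for most of these, with Pcdh7 at 171 CPM, Pcdh17 at 133 CPM and Pcdh9 at 127 CPM. Pcdh15, known from the tip links of sensory hair cells, was at 79.3 CPM in that lineage, against under 1 CPM in the endothelial, astroglial and granule groups. Cdh22 was highest in astroglia, at 18.7 CPM against 2.5 CPM in the oligodendrocyte lineage.

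Within the astroglia Pcdh7 stood at 94.6 CPM in SG males, 37.8 CPM in YSG males, 111 CPM in SG females and 37.1 CPM in YSG females. Both SG libraries were above both YSG libraries, by 2.4997-fold among males (1.67 to 3.86) and by 2.99-fold among females (1.67 to 5.88). Pcdh10 stood at 86.4 CPM in SG males, 37.8 CPM in YSG males, 85.8 CPM in SG females and 40.2 CPM in YSG females, in the same order. In the oligodendrocyte lineage Pcdh7 stood at 197 CPM in SG males, 132 CPM in YSG males, 151 CPM in SG females and 228 CPM in YSG females, so that the sexes went opposite ways. The YSG female library held 39 astroglial cells and each YSG library 44 oligodendrocyte lineage cells, so these values are the least precise of the glial ones.

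As granule cells left the cycle the summed levels of the clustered protocadherins were higher in every library and some other members were lower. The alpha sum in maturing over cycling cells was 4.54-fold in SG males, 2.68-fold in YSG males, 5.91-fold in SG females and 3.23-fold in YSG females. The beta sum was 2.79-fold, 2.11-fold, 3.41-fold and 2.48-fold higher in the same order of libraries, and the gamma sum 1.69-fold, 1.34-fold, 2.28-fold and 1.77-fold higher. Type II cadherins ran the other way, with maturing cells at 0.385, 0.613, 0.386 and 0.558 of the cycling level, and so did non-clustered protocadherins at 0.606, 0.630, 0.544 and 0.676. Cdh2 hardly moved, from 157 to 177 CPM in cycling cells to 182 to 206 CPM in maturing cells over the 4 libraries. Not every clustered gene followed its sum. In YSG males Pcdhgc4 was at 13.95 CPM in cycling and 13.7 CPM in maturing cells, and Pcdhgc5 at 7.59 and 6.71 CPM. Both were higher in maturing cells in SG males, SG females and YSG females.

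By single genes, 4 of 31 measured members were past 2-fold higher in maturing than in cycling cells in all 4 libraries, against 4.49% of 9847 genes, and 2 were past 2-fold lower, against 5.29%. The higher ones were Pcdha9, Pcdha11 (ENSMUSG00000102206), Pcdhb16 and Pcdhb17, and the lower ones Cdh4 and Pcdh18. For early and maturing postmitotic cells together the counts were 2 of 28 higher, against 3.29% of 9813 genes, and 1 of 28 lower, against 4.34%, the former being Pcdha11 (ENSMUSG00000102206) and Pcdhb16 and the latter Pcdh18. Pcdhb16, whose last 500 exonic bases are not shared with another gene, stood at 4.64 to 5.21 CPM in cycling and 11.5 to 20.1 CPM in maturing cells. Pcdh18 stood at 73.9 CPM in SG males, 92.7 CPM in YSG males, 81.2 CPM in SG females and 68.6 CPM in YSG females in cycling cells. In maturing cells it was at 7.16 CPM, 34.1 CPM, 5.41 CPM and 16.4 CPM in the same order, so that maturing cells were lower in every library.

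**Figure D4:**
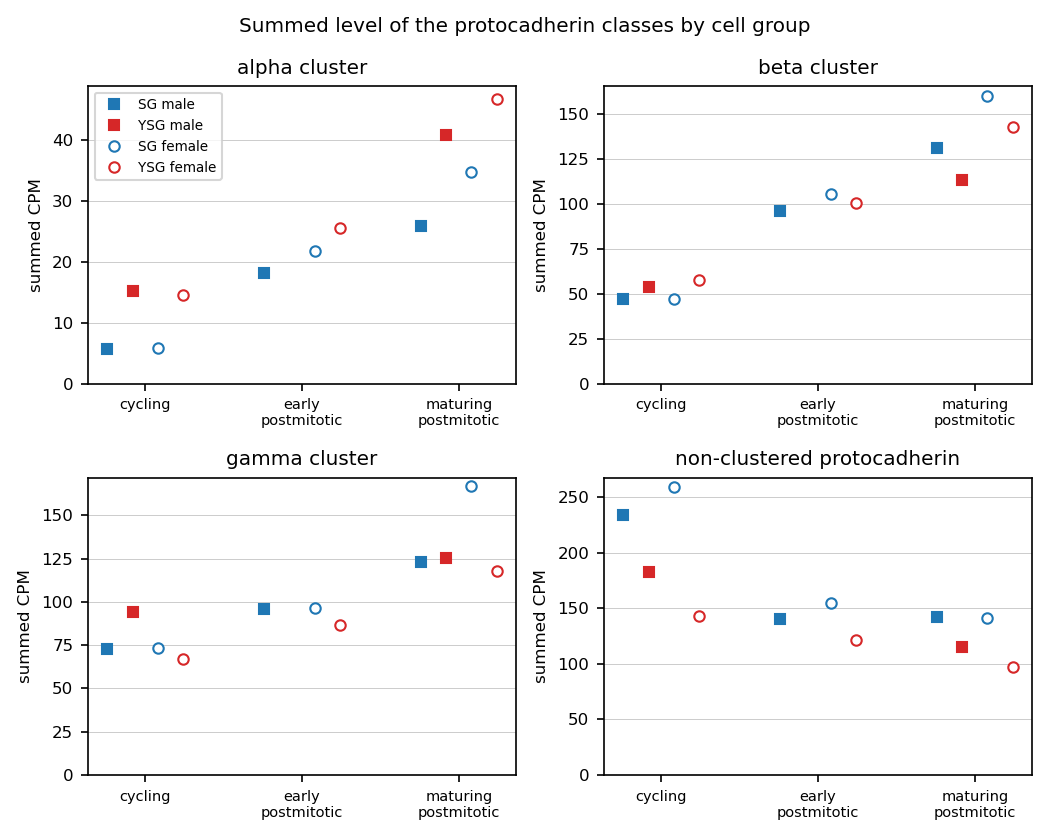
Summed level in CPM of the alpha, beta, gamma and non-clustered protocadherins in cycling, early postmitotic and maturing postmitotic granule cells; squares are males, open circles females, blue SG and red YSG, and each panel has its own axis from 0. The early group of YSG males, with 32 cells, is not drawn. The alpha sum climbs to between 25.9 and 46.9 CPM in maturing cells, and in cycling cells both YSG libraries, at 15.3 and 14.5 CPM, are above both SG libraries, at 5.70 and 5.88 CPM.

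Compared within cell groups, the genotypes kept some of these differences and not others. In cycling cells Pcdh7 stood at 61.5 CPM in SG males, 21.7 CPM in YSG males, 72.5 CPM in SG females and 28.8 CPM in YSG females. SG was above YSG by 2.83-fold among males (2.58 to 3.10) and by 2.52-fold among females (2.31 to 2.75). In postmitotic cells the gap was narrower, at 24.8 CPM in SG males, 15.7 CPM in YSG males, 24.4 CPM in SG females and 19.9 CPM in YSG females. Of 27 members measured in cycling cells 0 were past 2-fold higher in YSG in both sexes, against 1.04% of 9874 genes, and 2 were past 2-fold lower, against 1.63%, namely Pcdh7 and Cdh11. The cycling cells of SG came mostly from another cluster than those of YSG, so these ratios compare different clusters under 1 name.

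In postmitotic cells 1 of 39 measured members was past 2-fold higher in YSG in both sexes, against 0.876% of 9937 genes, and 2 were past 2-fold lower, against 0.574%. The higher one was Pcdha9, at 2.47 CPM in SG males, 7.03 CPM in YSG males, 3.07 CPM in SG females and 8.82 CPM in YSG females. The lower ones were Pcdh20, at 13.9 CPM in SG males, 3.47 CPM in YSG males, 13.5 CPM in SG females and 1.43 CPM in YSG females, and Cdh4. Pcdh20 was thus higher in SG by 4.01-fold among males (2.86 to 5.76) and by 9.43-fold among females (6.47 to 14.1). Cdh4 stood at 37.4 CPM in SG males, 15.9 CPM in YSG males, 37.7 CPM in SG females and 16.7 CPM in YSG females. Most SG postmitotic cells were early and most YSG ones maturing at this resolution, while at resolution 2.0 early cells were the larger part in every library, with 1478 early and 730 maturing cells in YSG males and 1834 and 1520 in YSG females. The early cells themselves fell in different clusters, so these members were also compared in maturing cells alone. There Cdh4 stood at 19.8 CPM in SG males, 16.2 CPM in YSG males, 13.1 CPM in SG females and 13.0 CPM in YSG females, and the intervals of its fold included 1 in both sexes. At resolution 2.0 they did not, with folds of YSG over SG of 0.265 among males (0.160 to 0.433) and 0.439 among females (0.265 to 0.757). Pcdh20 in maturing cells was at 7.71 CPM in SG males, 3.44 CPM in YSG males, 13.1 CPM in SG females and 1.27 CPM in YSG females. SG was above YSG by 2.24-fold among males (1.13 to 4.21) and by 10.3-fold among females (5.04 to 20.96). Pcdha9 was at 6.06 CPM in SG males, 7.05 CPM in YSG males, 5.41 CPM in SG females and 10.05 CPM in YSG females, and its folds, 1.16 among males (0.618 to 2.42) and 1.86 among females (0.880 to 4.70), had intervals that included 1. At resolution 2.0 its folds were 1.51 among males (0.658 to 3.86) and 3.44 among females (1.30 to 12.9). The female interval there excluded 1, from 4 UMIs in SG females and 97 in YSG females.

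Among maturing cells 1 of 39 members was past 2-fold higher in YSG in both sexes, against 0.905% of 9943 genes, and 1 was past 2-fold lower, against 1.04%. The higher one was Pcdh18, with the levels given above, from 13 UMIs in SG males, 397 in YSG males, 7 in SG females and 245 in YSG females. YSG was above SG by 4.77-fold among males (2.76 to 9.04) and by 3.04-fold among females (1.45 to 7.63). The lower one was Pcdh10, at 39.6 CPM in SG males, 16.7 CPM in YSG males, 30.9 CPM in SG females and 14.2 CPM in YSG females. SG was above YSG by 2.38-fold among males (1.79 to 3.13) and by 2.18-fold among females (1.51 to 3.06). These cells were not the same clusters in both genotypes: cluster 9, led by immediate-early genes such as Fos and Npas4, held 192 of 446 SG male and 144 of 301 SG female maturing cells, but 340 of 1894 and 368 of 2449 in YSG. Cluster 9 also had a higher mean log2 ratio over all other cells for the early markers, 1.07, than for the maturing markers, 0.749. It was named maturing because Grin2b, a maturing marker, was among its leading genes. At resolution 2.0 Pcdh18 was at 7.12 CPM in SG males, 16.6 CPM in YSG males, 6.82 CPM in SG females and 6.53 CPM in YSG females, so that the order was lost among females, where the fold was 0.958 (0.453 to 2.33). Pcdh10 there kept its direction, at 0.564 of the SG level among males (0.399 to 0.801) and 0.522 among females (0.366 to 0.760), neither past 2-fold. Cdh20 was higher in YSG at resolution 1.0, at 18.7 CPM in SG males, 29.4 CPM in YSG males, 18.5 CPM in SG females and 30.2 CPM in YSG females, the reverse of its order in cycling cells. At resolution 2.0 its folds were 0.807 among males (0.529 to 1.25) and 1.19 among females (0.771 to 1.92), with intervals that included 1.

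Of the clustered genes, the alpha sum stayed higher in YSG in cycling cells, by 2.68-fold in males and 2.47-fold in females. In maturing cells it was at 25.9 CPM in SG males, 40.9 CPM in YSG males, 34.8 CPM in SG females and 46.9 CPM in YSG females. YSG was above SG there by 1.58-fold (1.17 to 2.18) in males and 1.35-fold in females (0.998 to 1.87, an interval that includes 1). The beta sum did not keep its direction in maturing cells, at 131 CPM in SG males, 113 CPM in YSG males, 160 CPM in SG females and 143 CPM in YSG females. Its fold of YSG over SG among males was 0.864 (0.752 to 0.996), and among females 0.891 (0.772 to 1.03). The gamma sum was 1.02 of the SG level among YSG males in maturing cells (0.888 to 1.18) and 0.708 among YSG females (0.614 to 0.819). In cycling cells it was 1.296 among males (1.23 to 1.37) and 0.913 among females (0.859 to 0.971). At resolution 2.0 the fold of the maturing alpha sum was 2.04 among males (1.46 to 2.90) and 1.29 among females (0.968 to 1.76). That of the beta sum was 1.02 among males (0.866 to 1.19) and 0.993 among females (0.854 to 1.16), with intervals that included 1. That of the gamma sum was 1.004 among males (0.855 to 1.18) and 0.747 among females (0.644 to 0.871).

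Pcdh1 and Cdh22, both in females, had a genotype ratio that differed by more than 2-fold between cycling and postmitotic cells, with opposite sign. Pcdh1 had a log2 ratio of −1.02 in cycling and 0.45 in postmitotic cells, and Cdh22 had −0.09 and 1.21. Cdh22 stayed under 5 CPM in cycling and in postmitotic cells of every library, so it did not count as measured there. Its cycling levels in females were close, at 2.77 CPM in SG and 2.54 CPM in YSG, so an opposite direction is not shown for it. For Cdh22 the higher postmitotic level came from the early cells, at 7.17 CPM in YSG females from 58 UMIs against 0.683 CPM in SG females from 8 UMIs. These early cells of YSG females were nearly all in a cluster of their own.

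A further comparison used only the 5 lineage clusters that the genotypes shared most evenly, numbered 7, 8, 9, 11 and 12, since nearly all cells of most others came from 1 genotype. Of these, clusters 7, 8, 9 and 11 had heat-shock or immediate-early genes such as Hspa1a, Fos and Atf3 among their leading genes, and cluster 12 was led by mitotic genes such as Cdc20, so they are mostly a subset with stress-response genes. They held 1254 cells of SG males, 2125 of YSG males, 895 of SG females and 929 of YSG females. There Pcdh9 stood at 25.3 CPM in SG males, 11.9 CPM in YSG males, 26.7 CPM in SG females and 16.5 CPM in YSG females, and SG remained above YSG by 2.13-fold (1.71 to 2.65) and 1.62-fold (1.23 to 2.15). Pcdh7 stood at 36.3 CPM in SG males, 23.9 CPM in YSG males, 37.8 CPM in SG females and 33.1 CPM in YSG females. Its fold of YSG over SG in females, 0.876 (0.71 to 1.08), had an interval that included 1. The alpha sum in these clusters was higher in YSG by 2.60-fold among males (1.93 to 3.57) and by 3.47-fold among females (2.496 to 4.92). The beta sum was at 0.853 of the SG level among YSG males (0.760 to 0.958) and at 1.39 among YSG females (1.22 to 1.595), and the gamma sum at 0.985 and 1.006. The type II sum was at 1.05 among YSG males (0.943 to 1.16) and at 0.892 among YSG females (0.776 to 1.03), with intervals that included 1.

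**Figure D5:**
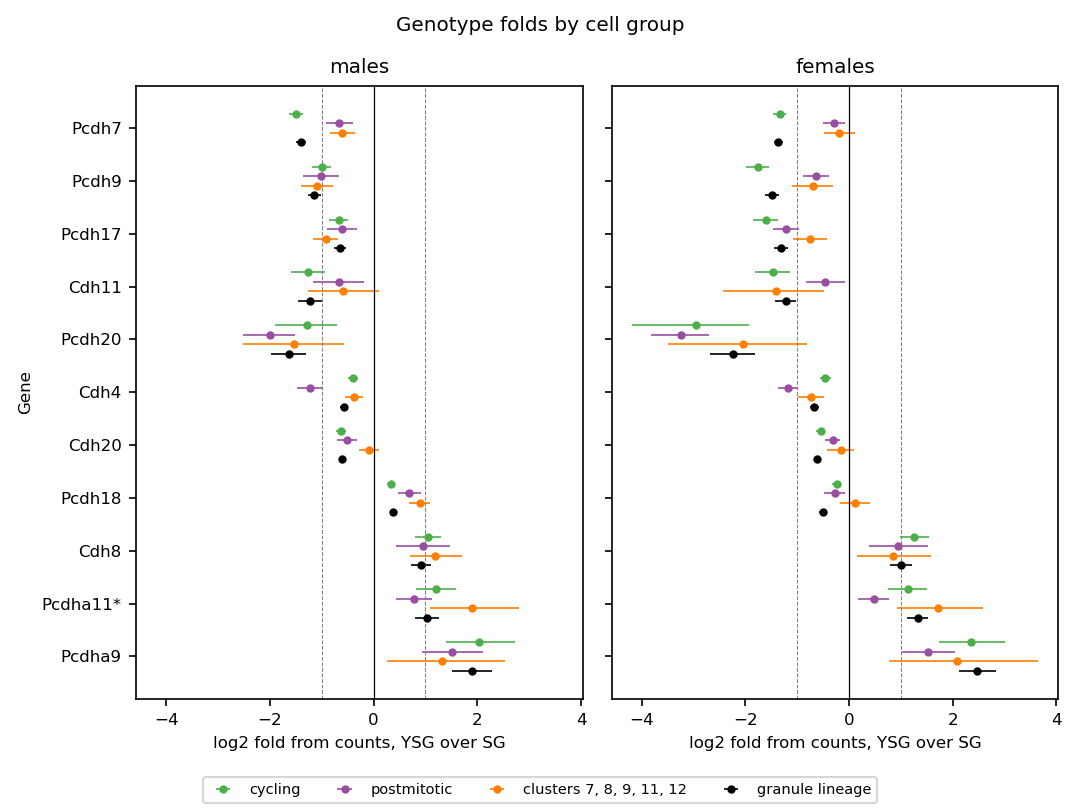
Log2 fold of YSG over SG computed from counts, with no added constant, for 11 members in cycling, postmitotic and all granule-lineage cells and in clusters 7, 8, 9, 11 and 12, males on the left and females on the right; bars are exact 95% counting intervals and dashed lines mark 2-fold. Pcdh9, Pcdh17 and Pcdh20 are left of 0 and Pcdha9 and Cdh8 right of 0 in every group, while Pcdh7 in females lies near 0 in clusters 7, 8, 9, 11 and 12. Pcdha11 with an asterisk is the gene ENSMUSG00000102206.

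Summed over the granule lineage, no measured member was past 2-fold between the sexes within a genotype. In SG 0 of 26 measured members were past 2-fold higher in males than in females, against 0.0501% of 9985 genes, and 0 were past 2-fold lower, against 0.0801%. Their log2 ratios of male over female ran from −0.31 to 0.36. In YSG 0 of 33 were past 2-fold higher in males, against 0.403% of 10173 genes, and 0 were past 2-fold lower, against 1.13%. Here the ratios ran from −0.49 to 0.65, with Pcdh10 and Pcdh18 the highest. So few genes passed in either genotype that counts of 0 say little about the members. Within cell groups some members passed. In SG maturing cells 6 of 45 were past 2-fold lower in males and 0 higher. In YSG cells 1 of 25 was higher in males among cycling and 1 of 38 among maturing cells, and 0 were lower. SG cycling and early cells had 0. In YSG early cells, with 32 male cells, 14 of 51 were higher and 15 lower. The shares of all genes within these groups are not given. With 1 library for each sex, a difference between animals and one between sexes cannot be told apart.

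Most genes whose proteins act with cadherins stayed within 2-fold. Of 15 catenins and junction linkers 10 were measured, and 1 was past 2-fold, in females only. This was Vcl, which encodes vinculin, the link from catenins to actin, at 339 CPM in SG males, 171 CPM in YSG males, 365 CPM in SG females and 167 CPM in YSG females. Its log2 ratios were −0.98 and −1.12, and both SG libraries were above both YSG libraries. Ctnna2, the neuronal alpha-catenin, had 0.37 and 0.68, and Ctnnb1, beta-catenin, −0.16 and −0.27. Of 8 nectins and Cadm adhesion molecules 7 were measured and 0 passed 2-fold in either sex, with Cadm3 at 0.74 and 0.72 and Cadm1 at −0.55 and −0.62. Of 25 other genes of the cadherin superfamily 7 were measured and 0 were past 2-fold, with Fat3 at −0.51 and −0.995 and Celsr2, a planar polarity cadherin, at 0.59 and 0.62.

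Of 9 subunits of the WAVE complex and its relatives all 9 were measured, and 1 was past 2-fold higher in both sexes. This was Cyfip2, at 16.4 CPM in SG males, 37.0 CPM in YSG males, 14.7 CPM in SG females and 39.7 CPM in YSG females, so that both YSG libraries were above both SG libraries. Wasf2 went the other way, with log2 ratios of −0.91 and −0.89. Of 8 proteases that cut cadherins Aph1b, a part of gamma-secretase, was past 2-fold higher in females, with ratios of 0.95 and 1.21, and Adam10, which sheds N-cadherin, had 0.05 and −0.02. All 14 genes of clustered protocadherin choice and silencing were measured and 0 were past 2-fold, among them Ctcf at −0.11 and −0.02 and Dnmt1 at −0.38 and −0.32. Of 7 repressors of Cdh1 transcription 2 were measured and 0 were past 2-fold, Zeb1 at 0.06 and −0.01 and Zeb2 at −0.25 and −0.35. The shares past 2-fold among all genes are those given above for each sex.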

How the data were processed

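Per the labels' protocols, fresh tumour tissue was dissociated and captured with the 10x Genomics 3' kit V3 and sequenced on DNBseq. Per the file headers the matrices come from Cell Ranger 5.0.1, and the submitters' processing notes name mm10. The values the authors deposited are raw UMI counts per gene and barcode, not normalized, in 4 libraries with 58478914 to 86906706 UMIs each. How the counting treated reads in exons shared by several genes is not given in the sources used here. Gene positions were read from GENCODE M21, an annotation of mm10. Each feature was identified by its gene identifier, since the symbol Pcdha11 occurs on 2 members.

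Barcodes under 500 UMIs or 300 genes, or above 20% mitochondrial UMIs, were dropped. Scrublet (in scanpy 1.11.5), at its own threshold, marked 0% of each library, so doublets were kept and removal of the top 6% of scores was an alternative. Counts scaled to 10000 per cell, 2000 variable genes, 30 principal components and 15 neighbours (numpy 2.4.6, scikit-learn 1.9.0) were clustered with leidenalg 0.10.2 at resolution 1.0. UMIs were then summed per library and cell group and divided by the group's total (CPM, pandas 2.3.3). Ratios are log2 of CPM + 1, with a minimum of 5 CPM in 1 of the 2 libraries, and folds come from counts with exact intervals (scipy 1.17.1). Genotype was tested on the lineage sums with edgeR 4.0.16 (R 4.3.3), as a quasi-likelihood test with TMM factors, sex as a block and Benjamini-Hochberg adjustment over 10405 genes, added after the data were seen. The steps were tested on simulated counts.

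Genes were named by rule: members past 2-fold in both sexes or in 1, the 10 with the highest mean level, the 5 highest in glial and in endothelial cells, members whose ratio differed by more than 2-fold between cycling and postmitotic cells, and up to 4 genes of each list. Others with coordinates or values, such as Cdh8, Pcdh1, Pcdh15, Cdh15 and Cdh22 in astroglia, were chosen after their values were seen. Members and lists were chosen with earlier results of these data known. Alternatives covered scaling, thresholds, cell filters, doublets, clustering and the clusters used.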

Additional observations from a re-analysis of the deposited data

Results flagged for a closer look

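Pcdh10, Pcdh18 and Pcdhgc3 were higher in YSG than in SG among males and lower among females, with the counting intervals of both folds excluding 1. The log2 ratios were 0.16 in males and −0.28 in females for Pcdh10, 0.37 and −0.50 for Pcdh18, and 0.14 and −0.40 for Pcdhgc3. The difference between the sexes was not tested, since each genotype and sex has 1 library, and spread between animals is unknown. Among maturing cells Pcdh18 was higher in YSG in both sexes at resolution 1.0, but at resolution 2.0 among males alone, with a fold of 0.958 among females. Pcdh10 was lower in YSG in both sexes there at both resolutions.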

How the results depend on the processing

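Of the 7 genes followed under 13 alternatives (Pcdh7, Pcdh9, Pcdh17, Pcdh20, Cdh11, Pcdha9 and Pcdha11 ENSMUSG00000102206), all kept their direction in both sexes. Of the 13, 2 set a minimum that leaves a gene's ratio as it is and 2 change the added constant, which cannot turn its sign, so 9 could have done so. When clusters 7, 8, 9, 11 and 12 alone were used, the ratios of Pcdh7 were −0.58 among males and −0.19 among females and that of Cdh11 among males was −0.47. The number past 2-fold depended on the added constant: with 5 CPM in place of 1 CPM it fell from 4 to 1 in males, from 6 to 2 in females and from 3 to 1 in both sexes, and with 0.1 CPM it was 6, 7 and 4, the last being 1 higher and 3 lower. With a minimum of 10 CPM the count in males was 2 of 11 measured. With a minimum of 1 CPM, 5 members were past 2-fold in both sexes, 1 higher and 4 lower. In clusters 7, 8, 9, 11 and 12 alone 1 member was past 2-fold in both sexes, Pcdha11 (ENSMUSG00000102206), which was higher. At resolution 2.0, 4 members rather than 2 were past 2-fold in both sexes in cycling cells, 1 higher and 3 lower. The members' median turned from 0.11 to −0.43 in males and from 0.20 to −0.63 in females at a minimum of 10 CPM, where fewer genes were measured, and to −0.17 in males in those 5 clusters. In females it was 0.30 at a minimum of 1 CPM and 0.049 with equal weight to cycling, other and postmitotic clusters. The cause of the other changes was not tested. The comparison in those 5 clusters, the one without the cluster nearly all from YSG females the one with equal weights and the edgeR test were chosen after seeing the data. Leaving out a replicate was not possible with 1 library a group. The labels give no replicate numbers, so the edgeR test of genotype took sex as its block and called 13 members, 5 higher and 8 lower. Without the replicate block it called 8, 2 higher and 6 lower, with median-of-ratios size factors 15 of 36, and with a minimum of 1 CPM 24 of 66, 13 higher and 11 lower. At an unadjusted p under 0.05 it had 20 of 36 members and 3071 of 10405 genes. Members under 1 CPM, and values in endothelial cells and in the glia of YSG females, are limited by depth.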
